A study of Mus musculus with 2 samples.

Results

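The replication-dependent histone genes were taken as every gene whose name on the array starts with Hist1h, Hist2h, Hist3h or Hist4h. They were 56 of the 37074 gene names on the array, represented by 68 of 56605 probes. By histone type, 6 gene names were H1, 18 were H2A, 14 were H2B, 9 were H3 and 9 were H4. The samples were mDE6 cells, a mouse line labelled as odontogenic epithelium, the epithelium that forms the tooth germ. There was 1 array of control cells, labelled as DMSO treated although the methods call the control untreated, and 1 array of cells given CHIR99021 for 6 h, both on 1 slide. CHIR99021 inhibits the kinase GSK-3 and thereby activates β-catenin signaling. The labels give its dose as 5 mM, whereas the methods give it in micromolar units. The comparison asked which genes CHIR99021 left at a lower or higher level than the control. With 1 array for each condition no test was possible, and no ratio below has a replicate check.

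The core histones H2A, H2B, H3 and H4 form the octamer around which DNA is wound, and H1 binds the linker DNA between octamers. The genes that supply them during S phase lie in clusters, and many copies of a type encode the same or nearly the same protein. Their mRNAs are unusual in ending in a conserved stem-loop in place of a poly(A) tail, which the stem-loop binding protein Slbp recognises. Histone mRNA rises as DNA replication begins and is degraded as it ends. The labelling kit used here primes RNA from poly(A) tails, and what share of each histone transcript it captured was not tested.

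A spot was called well above background where the scanner software marked it so, which was 29562 of 59305 spots (49.8%) for the control and 28636 (48.3%) for CHIR99021. No spot was saturated. The level of a probe was its processed signal divided by the 75th percentile of its array, 487 for the control and 469 for CHIR99021, and the ratio was the CHIR99021 level over the control level. Signals below are as deposited, before that division. Probes differ in how well they bind, so a higher signal of 1 probe than of another is not a higher level of its mRNA. Bright and dim below refer to the signal of a probe alone. Because the labelled RNA came from all cells of a culture, fewer cells in S phase and less histone RNA per cell cannot be told apart. The labelled cell type was checked against its markers. The defining epithelial genes Cdh1, Epcam and Krt8 were not well above background on either array, and Krt5 was so only on the CHIR99021 array, at a signal of 165. Trp63, a factor of basal epithelium, had signals of 2306 and 2896. All 8 mesenchyme markers were well above background on both arrays, with signals from 647 (Twist1) to 270783 (Col1a2) on the control array. Of the endothelial markers, Cdh5 and Kdr were not well above background on either array, and Pecam1 had 29.9 on the control array. Of the blood markers, Hbb-b1 was not well above background, while Ptprc had 1709 and 1764, and Cd68 579 and 691. The part of the cell makeup in the histone values was not tested.

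Sequences of the H4 and H2A probes are shown because bright H4 probes had ratios below 1 and close to each other, while bright H2A probes had ratios near 1. Several copies of each type are so alike that a probe for 1 gene can bind the mRNA of another. Of 11 H4 probes, 5 were at least 90% identical to a probe of another H4 gene over at least 30 bases, and of 21 H2A probes, 9 were so. No H1, H2B or H3 probe had such a partner. The following 4 H4 probes, of 60 bases each, cover the same stretch of the reading frame. Capitals mark the bases that differ from the Hist1h4k probe over the overlap, and coordinates are in mm9 as the files give them.
Hist1h4k, chr13:21842279-21842338, - strand: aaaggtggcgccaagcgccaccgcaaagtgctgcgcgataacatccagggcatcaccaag
Hist1h4j, chr13:21826989-21827048, + strand: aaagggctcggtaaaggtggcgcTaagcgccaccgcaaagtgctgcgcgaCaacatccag
Hist1h4d, chr13:23673515-23673574, + strand: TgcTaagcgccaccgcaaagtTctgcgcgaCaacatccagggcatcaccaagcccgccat
Hist1h4c, chr13:23790223-23790282, - strand: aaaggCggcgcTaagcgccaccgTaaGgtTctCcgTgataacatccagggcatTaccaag
Over 48 overlapping bases Hist1h4j had 2 differences, over 52 bases Hist1h4d had 4, and over 60 bases Hist1h4c had 8. In each of the 3 the differences all fell at the same place in successive codons. The following 5 H2A probes end at the stop codon, and capitals mark the differences from the Hist1h2ak probe.
Hist1h2ak, chr13:21845304-21845363, - strand: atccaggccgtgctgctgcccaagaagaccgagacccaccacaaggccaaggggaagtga
Hist1h2ah, chr13:22127035-22127094, - strand: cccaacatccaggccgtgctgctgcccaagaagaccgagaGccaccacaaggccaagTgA
Hist1h2af, chr13:23626113-23626172, + strand: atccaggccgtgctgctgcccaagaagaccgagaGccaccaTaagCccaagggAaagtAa
Hist1h2an, chr13:21902669-21902728, + strand: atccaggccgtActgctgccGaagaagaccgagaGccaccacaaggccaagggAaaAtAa
Hist2h2aa2, chr3:96043781-96043840, - strand: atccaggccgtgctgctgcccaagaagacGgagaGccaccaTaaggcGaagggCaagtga
Hist1h2ah differed at 3 of 54 bases, Hist1h2af and Hist2h2aa2 at 5 of 60, and Hist1h2an at 6 of 60. The values of the near-identical probes therefore cannot be taken as independent measurements of separate genes, although their cross-binding was not measured. The Hist1h4c probe, at 86.7% identity, is not among the 5 near-identical H4 probes.

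The stem-loop itself lies within a few probes. It was searched, on the strand as deposited, as a 6-base arm that begins GG and ends CT, a 4-base loop that begins T, and the reverse complement of the arm. Such a run was in 6 of 68 histone probes (8.82%) and in 7 of all 56605 probes (0.0124%). In 4 of the 6, those of Hist1h2bf, Hist2h2bb, Hist1h3a and Hist1h3i, the whole element was the same.
Stem-loop: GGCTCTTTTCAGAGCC
The capitals cover the whole element. The remaining 2 were the probes of Hist1h3g and Hist1h4m, which hold variants of it. All 6 probes were well above background on both arrays, with log2 ratios from -0.35 (Hist1h3g) to 0.20 (Hist1h3a).

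Of the 68 probes, 53 probes of 45 genes stood well above background in at least 1 condition, 52 of them in both. All 11 H4 probes and all 10 H3 probes were, compared with 6 of 8 for H1, 14 of 21 for H2A and 12 of 18 for H2B. The 11 genes with no such probe were Hist1h1t, Hist1h2ac, Hist1h2ad, Hist1h2ae, Hist1h2al, Hist2h2aa1, Hist1h2bg, Hist1h2bp, Hist1h2bq, Hist3h2ba and the pseudogene Hist3h2bb-ps. Hist1h2al matched the RefSeq symbol H2af-ps2, which also marks a pseudogene. Hist1h1t encodes the linker histone of the testis. The 15 probes not well above background had control signals from 4.79 to 28.2, and no ratio is given for them.

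**Figure D1:**
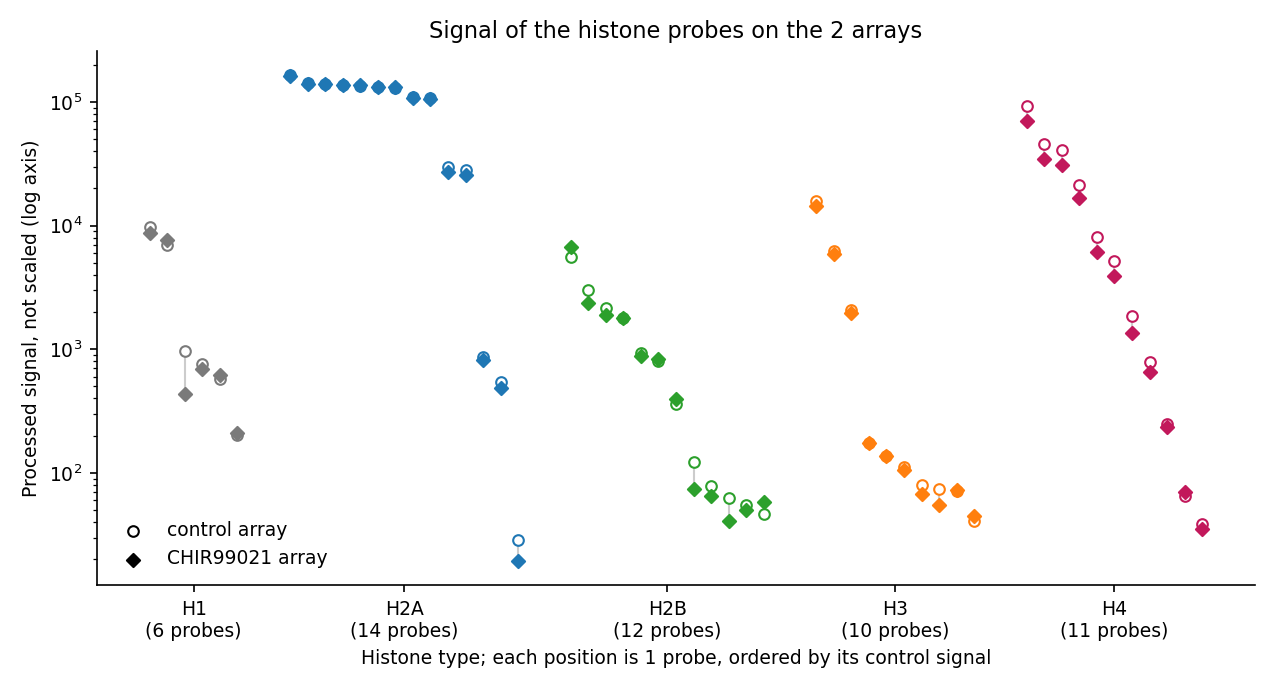
Processed signal, not scaled and on a log axis, of each of the 53 measured histone probes, by histone type. Open circles are the control array and filled diamonds the CHIR99021 array; signals of different probes are not comparable. Among the H4 probes the CHIR99021 signal lies below the control signal in every probe but that of Hist1h4m, whereas the 9 near-identical H2A probes have nearly equal signals on both arrays.

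The median log2 ratio of the 53 probes was -0.03, with a range from -1.10 to 0.37, beside a median of 0.03 over all 28066 probes tested. Below 0 were 31 histone probes, against 46.7% of all probes, and above 0 were 22, against 53.3%. The balance follows the scaling, as the median of the histone probes was -0.08 without scaling and 0.06 with spike-in scaling. At a ratio of at most 0.66, the limit used in the study's methods, 2 histone probes were lower, against 9.68% of all probes. At a ratio of at least 1.5, 0 of the 53 were higher, against 8.24% of all probes. When a Z-score of at most -2.0 among the 500 probes nearest in mean level was also required, 1 histone probe was lower, against 2.72%, and with a Z-score of at least 2.0 no probe was higher, against 2.35%. At a control level of at least 1, where ratios of all probes are narrower, 1 of 35 histone probes was at most 0.66, against 3.50% of all probes at such a level, and 0 were at least 1.5, against 3.30%. These counts are too small to set the histone probes apart from others of their level. The ratio of each probe was then read by histone type, with the error model of the scanner software, which sets a proportional error of 10% for each signal and gives an SD of 0.20 on the log2 ratio of a bright probe. That error covers the measurement of a spot and not the spread between cultures.

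H4, the histone that pairs with H3, was lower on the CHIR99021 array across its bright probes. The median log2 ratio of its 11 probes was -0.33, and 10 of the 11 were below 0. In the 8 probes with a control level of at least 1, the 75th percentile of the array, all were below 0, against 41.6% of all probes at such a level. Their ratios ran from 0.758 to 0.860 with a median of 0.786. At a ratio of at most 0.8, a limit chosen after the values were seen, lay 6 of these 8, against 10.6% of all probes at such a level. That count depends on the scaling, as 3 H4 probes were at most 0.8 with scaling by the median and 0 with spike-in scaling.

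The Hist1h4d probe at chr13:23673749-23673808 was printed at 10 spots, of which 9 were used and 1 was marked as an outlier. It gives the spot-to-spot error of an H4 ratio. Its control signals at the 9 spots were 94198, 95732, 92181, 90202, 94594, 92266, 92351, 93896 and 89916. In the same order its CHIR99021 signals were 67761, 70283, 68249, 67049, 72216, 70852, 71244, 72644 and 70981. The highest CHIR99021 spot lay below the lowest control spot. The mean signal was 92815 ± 1966 (SD over 9 spots of 1 array) for the control and 70142 ± 1994 for CHIR99021. The log2 ratio of the scaled levels ran from -0.42 to -0.29 among the spots, with an SD of 0.04, beside a median SD of 0.03 over the 282 probes that had 10 spots, each well above background. The mean log2 ratio was -0.35 (ratio 0.784) and the Z-score -2.79. Among the 292 probes within 0.5 of its mean log2 level, 0.685% had a lower ratio. The spots are repeats of the same labelled RNA and say nothing of the spread between cultures.

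The other bright H4 probes had ratios close to that value. The second Hist1h4d probe, at chr13:23673515-23673574, had signals of 21346 for the control and 16791 for CHIR99021, a log2 ratio of -0.29 ± 0.20 (error model SD). The Hist1h4k probe at chr13:21842063-21842122 had 45232 and 34710.0 (-0.33 ± 0.20), and the second Hist1h4k probe, printed above, had 5205 and 3912 (-0.36 ± 0.20). The paired probes of Hist1h4d differed by 0.06 and those of Hist1h4k by 0.03 in log2 ratio, both less than the error of a single ratio. Hist2h4, in the cluster on chromosome 3, had signals of 40634 and 30853 (-0.34 ± 0.20). Hist4h4, which lies apart from the clusters on chromosome 6, had 8119 and 6080.5 (-0.36 ± 0.20). These probes are named for the copies they were designed for, and their binding to the mRNA of other H4 copies was not measured. Hist1h4j had 1864 and 1363 (-0.40 ± 0.20), the lowest H4 ratio. Hist1h4c had 793 and 658 (-0.22 ± 0.20), the smallest difference of the 8.

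The 3 H4 probes with a control level under 1 were nearer to equal. Hist1h4i had signals of 248 and 235, a log2 ratio of -0.02 ± 0.21. Hist1h4m had 64.7 and 70.3 (0.17 ± 0.27), and Hist1h4h had 38.8 and 35.1 (-0.09 ± 0.39). The ratios of the 3 differ from 0 by less than their error, and the error of Hist1h4h also spans the ratios of the bright probes.

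The promoters of the H4 genes are shown to describe their sequence, and a link between promoter and ratio was not tested. All 56 gene names matched RefSeq, 48 by accession and 8 by an older symbol, and 49 had a promoter in the RefSeq table of GRCm38.p6. The 250 bases before the start were searched on both strands for 4 motifs, none of which holds another. The TATA box was taken as TATAAA. The CCAAT box was searched by the letters of its name. The octamer, the site of Pou2f1, was taken as ATTTGCAT. The last was GGTCCG, an element known from H4 promoters. In the following promoters, 5′ to 3′ along the gene, capitals mark these motifs on either strand, and coordinates are in GRCm38.p6.
Hist1h4d, chr13:23581318-23581567, + strand: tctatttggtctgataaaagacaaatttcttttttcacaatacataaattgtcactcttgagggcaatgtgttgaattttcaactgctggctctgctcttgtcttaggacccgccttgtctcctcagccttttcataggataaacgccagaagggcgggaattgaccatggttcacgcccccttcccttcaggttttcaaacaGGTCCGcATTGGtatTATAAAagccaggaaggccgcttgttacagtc
Hist1h4k, chr13:21750554-21750803, - strand: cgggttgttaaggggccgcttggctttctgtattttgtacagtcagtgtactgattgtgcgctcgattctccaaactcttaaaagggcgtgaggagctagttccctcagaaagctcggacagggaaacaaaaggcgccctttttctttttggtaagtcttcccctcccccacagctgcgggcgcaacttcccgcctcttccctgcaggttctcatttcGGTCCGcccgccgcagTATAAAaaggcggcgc
Hist4h4, chr6:136804432-136804681, - strand: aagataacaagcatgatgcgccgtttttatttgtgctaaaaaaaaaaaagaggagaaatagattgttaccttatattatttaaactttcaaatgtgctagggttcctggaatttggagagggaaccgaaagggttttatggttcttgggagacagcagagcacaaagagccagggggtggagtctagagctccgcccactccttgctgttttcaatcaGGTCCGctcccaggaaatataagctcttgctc
Hist1h4c, chr13:23698459-23698708, - strand: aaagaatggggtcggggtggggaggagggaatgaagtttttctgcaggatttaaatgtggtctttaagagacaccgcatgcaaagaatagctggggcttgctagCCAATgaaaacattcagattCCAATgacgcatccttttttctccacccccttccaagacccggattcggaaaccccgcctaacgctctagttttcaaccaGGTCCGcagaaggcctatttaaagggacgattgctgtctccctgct
GGTCCG was in 7 of 8 H4 promoters (87.5%), in 1 of 7 H3 promoters and in none of the 6 H1, 17 H2A and 11 H2B promoters, compared with 6.72% of all 32851 promoters. The 7 included those of Hist1h4i and Hist1h4m, whose ratios were near 1. The H4 promoter without a match was that of Hist1h4h. Its searched bases end in GGTCC, so the motif may be cut by the edge and its absence is not shown. CCAAT was in 2 of 8 H4 promoters but in all 6 of H1, all 17 of H2A and all 11 of H2B and in 5 of 7 of H3, compared with 33.8% of all promoters. The octamer was in 7 H2A promoters and 6 H2B promoters and in none of H1, H3 and H4, compared with 526 of the 32851 promoters. TATAAA was in 24 of 49 histone promoters (49.0%) and in 12.4% of all promoters. A match of letters is not evidence of binding.

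H2A, the partner of H2B, was nearly equal on both arrays. The median log2 ratio of its 14 probes was 0.02, and the 13 measured on both arrays ran from -0.11 to 0.08. The sign of so small a value depends on the scaling, as it was -0.03 without scaling and 0.11 with spike-in scaling. The 9 near-identical probes (Hist1h2aa, Hist1h2af, Hist1h2ag, Hist1h2ah, Hist1h2ak, Hist1h2an, Hist1h2ao, Hist2h2aa2 and Hist2h2ac) had control signals from 107731 to 164723 and log2 ratios from 0.02 to 0.08. Hist1h2ah had 164723 for the control and 160661 for CHIR99021. Hist1h2aa is known as a testis form, and its probe was among the 9 that share their sequence with other copies, so its 133008 and 131217 cannot be assigned to that gene. The remaining 4 bright probes had log2 ratios of -0.08 (Hist1h2ab), -0.11 (Hist1h2ai), and -0.07 and -0.03 (both probes of Hist3h2a). Hist2h2ab stood well above background in the control alone, at 28.8, and was at least 1.06-fold lower with CHIR99021, where its signal was 19.4.

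**Figure D2:**
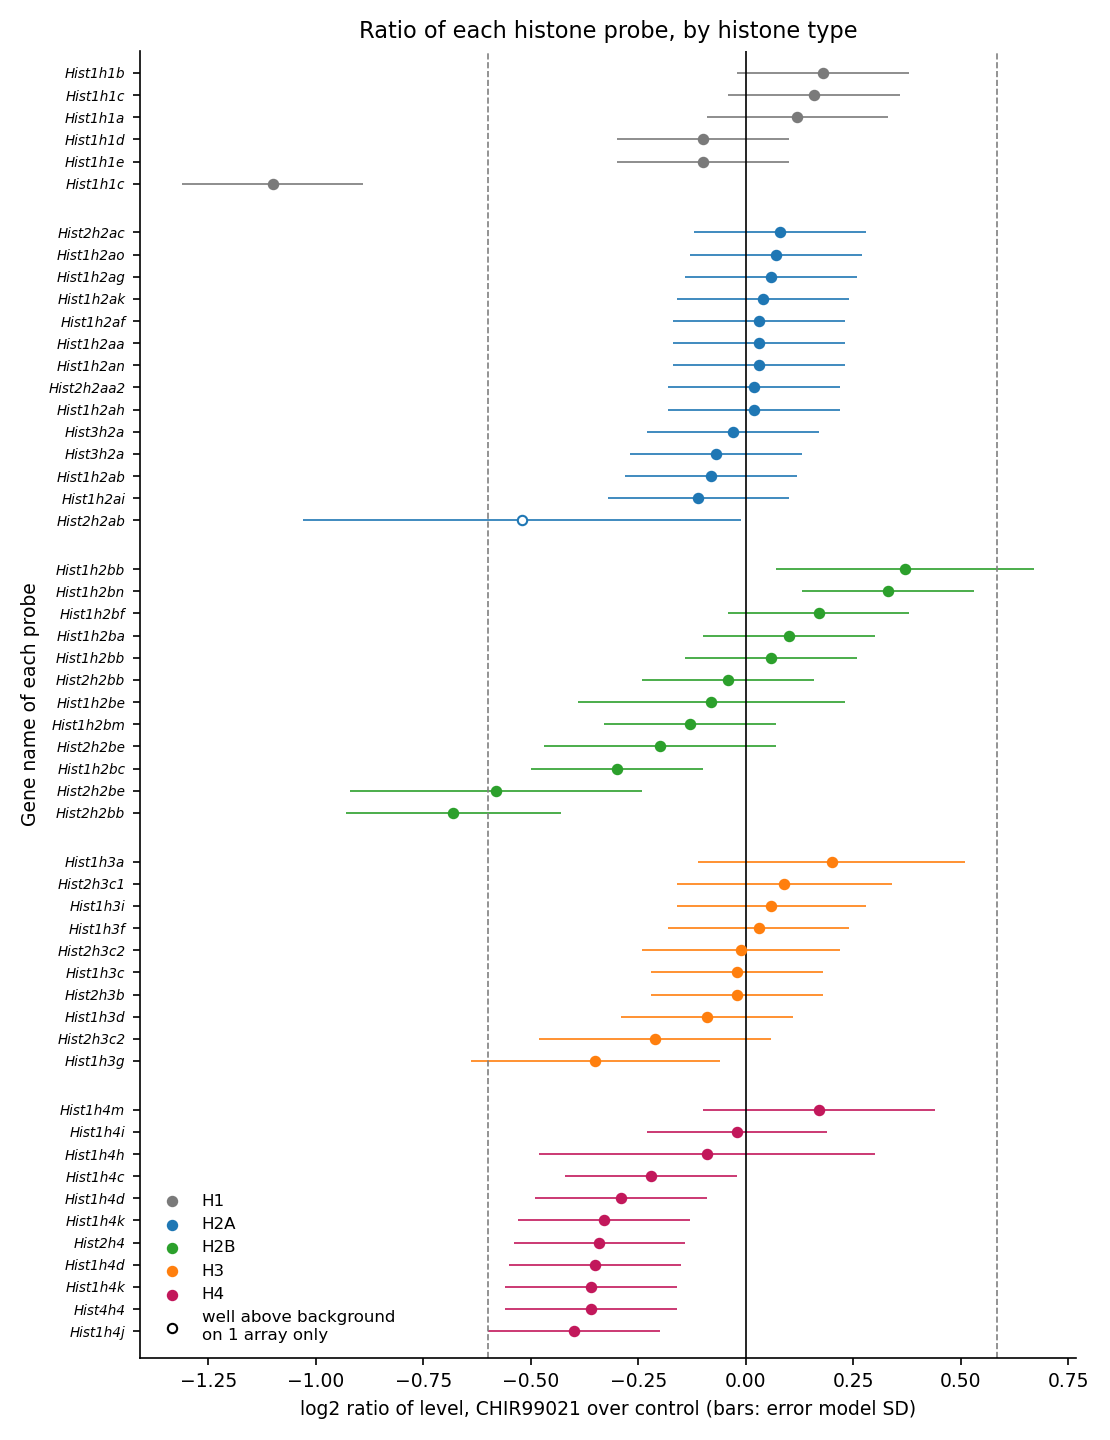
Log2 ratio of level, CHIR99021 over control, for each of the 53 histone probes, ordered by ratio within each histone type; bars are the error model SD of 1 measurement and dashed lines mark ratios of 0.66 and 1.5. The 8 lowest H4 probes lie between -0.40 and -0.22, the H2A probes measured on both arrays between -0.11 and 0.08, and only 1 probe each of Hist1h1c and Hist2h2bb lies beyond the lower line.

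H2B, which forms a dimer with H2A, was more spread. Its 12 probes had a median log2 ratio of -0.06 and a range from -0.68 to 0.37, and 6 of them had a control level of at least 1. Hist1h2bn had signals of 5539 and 6689.9, a log2 ratio of 0.33 ± 0.20 and the highest among histone probes with a control level of at least 1. Hist1h2bc had 3036 and 2371 (-0.30 ± 0.20). Hist1h2bm had 2166 and 1906 (-0.13 ± 0.20), and Hist1h2ba, a testis form, 809 and 838 (0.10 ± 0.20). The bright H2B probes thus differed from each other in direction, unlike those of H4.

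The larger H2B ratios came from probes at low signal. The Hist2h2bb probe at chr3:96082754-96082813 had signals of 122 and 73.8, a ratio of 0.626 (log2 -0.68 ± 0.25), past the limit of 0.66 but with a Z-score of -0.85. The other Hist2h2bb probe, which lies 8698 bases away and holds the stem-loop, had 941 and 881 (-0.04 ± 0.20). For Hist2h2be the probes had 63.0 and 40.7 (-0.58 ± 0.34), and 78.1 and 65.6 (-0.20 ± 0.27). For Hist1h2bb they had 46.4 and 58.0 (0.37 ± 0.30), and 1779 and 1784 (0.06 ± 0.20). Within Hist2h2bb the probes differed by 0.63 in log2 ratio, within Hist2h2be by 0.38 and within Hist1h2bb by 0.32. Of the 3 genes, only the gap within Hist2h2bb exceeds the summed errors of its probes. Hist1h2bf, with 362 and 393 (0.17 ± 0.21), and Hist1h2be, with 55.0 and 50.2 (-0.08 ± 0.31), were within their error of 0.

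H3, which carries most of the well-known histone tail marks, had a median log2 ratio of -0.02 over its 10 probes, with a range from -0.35 to 0.20. Hist1h3d had signals of 15803 and 14329 (-0.09 ± 0.20). Hist1h3c had 6246 and 5941 (-0.02 ± 0.20), and Hist2h3b 2073 and 1966 (-0.02 ± 0.20). None of the 3 H3 probes with a control level of at least 1 had a ratio as low as those of the 8 bright H4 probes, although H3 and H4 form a tetramer together. The remaining 7 probes had control signals of 40.6 (Hist1h3a) to 176 (Hist1h3f). Among these, Hist1h3g was lowest, at 73.6 and 55.5 (-0.35 ± 0.29), and Hist1h3a highest, at 40.6 and 44.9 (0.20 ± 0.31). The probes of Hist2h3c2 gave -0.01 ± 0.23 and -0.21 ± 0.27.

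H1 had the lowest ratio of any histone probe, in 1 of the 2 probes of Hist1h1c. The median log2 ratio of its 6 probes was 0.01, which was -0.04 without scaling. The Hist1h1c probe at chr13:23832018-23832077 had signals of 963 for the control and 433 for CHIR99021, a ratio of 0.467 (log2 -1.10 ± 0.21, Z-score -3.21). It was the only histone probe past both limits. The other Hist1h1c probe, at chr13:23831330-23831389, had 571 and 617 (0.16 ± 0.20). They differed by 1.26 in log2 ratio although their starts lie 688 bases apart, and the array files pair the lower one with an Ensembl transcript and the other with a RefSeq transcript. The gene as a whole therefore has no single direction here. Hist1h1e had 9679.6 and 8708 (-0.10 ± 0.20), Hist1h1b 7007 and 7671 (0.18 ± 0.20), Hist1h1d 764 and 686 (-0.10 ± 0.20), and Hist1h1a 202 and 212 (0.12 ± 0.21), each within its error of 0.

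Set together, the 42 probes of H1, H2A, H2B and H3 had a median log2 ratio of 0.00, and that of H4 was 0.33 lower. At a control level of at least 1, their 27 probes had a median of 0.02. Of the 27, 1, the Hist1h1c probe, had a ratio of at most 0.8, against 10.6% of all probes at such a level. Of the 52 histone probes well above background on both arrays, 10 had a ratio of at most 0.8, against 14.8% of all probes so measured, and 2 had a ratio of at least the inverse of 0.8, against 18.0%. The 10 were 6 of H4, 2 of H2B and 1 each of H1 and H3. The 10 became 7 with scaling by the median, 3, none of them H4, with spike-in scaling, and 12 without scaling. Whether H4 differs from the other types beyond the spread between cultures could not be tested.

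**Figure D3:**
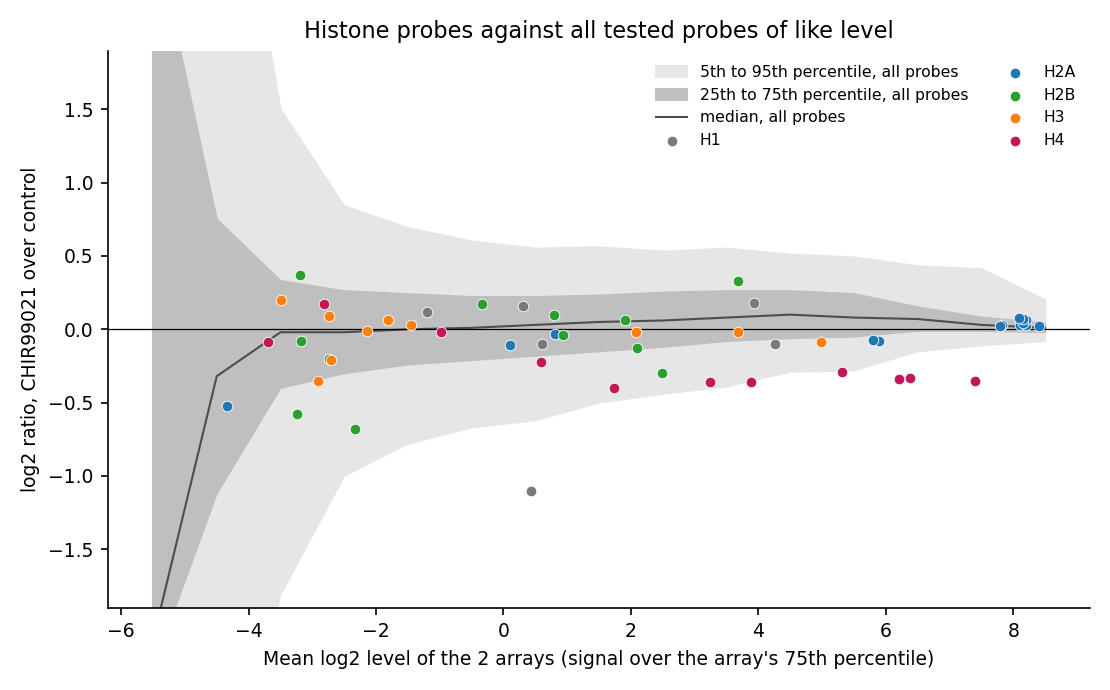
Log2 ratio against the mean log2 level of both arrays for the 53 histone probes, coloured by type, over the 5th to 95th and 25th to 75th percentiles of all tested probes in steps of 1 log2 unit of level. The H4 probes at a log2 level above 5 lie below the 5th percentile, which is -0.28 at 5 to 6 and -0.15 at 6 to 7. The 9 brightest H2A probes have log2 ratios from 0.02 to 0.08, where the median of all probes is 0.03 at 7 to 8 and 0.01 at 8 to 9. Some of them lie above the 75th percentile, which is 0.04 at 8 to 9. The larger H2B and H3 ratios fall in the wider spread at low level.

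Replication-independent histones can replace the others also outside S phase, and most of their mRNAs have poly(A) tails. All 11 genes on this list were measured on both arrays, with a median log2 ratio of -0.09, and 9 were below 0, against 46.7% of all probes. Here and in the lists below each gene is counted by its highest-signal probe. The shares beside the lists are of all probes, dim ones included. At a control level of at least 1, 41.6% of all probes were below 0, and their median log2 ratio was 0.05. At that level 3.50% of all probes were at most 0.66 and 3.30% at least 1.5. At a ratio of at most 0.66 was 1 of the 11, against 9.68% of all probes. It was H2afv, a form of H2A.Z, with signals of 14769.8 and 5924, that is 0.416 of the control level after scaling, with a Z-score of -4.85. The other H2A.Z gene, H2afz, had 36411 and 32386 (-0.12 ± 0.20). H3f3a, which encodes the replacement histone H3.3, had a log2 ratio of -0.32 in each of its probes, and H3f3b, which encodes the same protein, had -0.13. H2afj had 118384 and 117364 (0.04 ± 0.20), and its probe differs from that of Hist2h2ac at 5 of 50 overlapping bases. H1fx had 7218 and 6609 in its brighter probe (-0.07 ± 0.20), while its dimmer probe had 146 and 71.9, a ratio of 0.511. Cenpa, the centromeric H3, had 1475 and 1365 (-0.06 ± 0.20).

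Genes that transcribe histone genes and process their mRNA had mostly small ratios above 1. Of 17 genes, 16 were tested, with a median log2 ratio of 0.21 beside 0.03 for all probes, and 13 were above 0, against 53.3% of all probes. None was at a ratio of at least 1.5, against 8.24% of all probes, and 1 was at most 0.66, against 9.68%. Slbp, which binds the stem-loop, had 389 and 469 (0.32 ± 0.21), and its other probes gave 0.26 and 0.30. Lsm11, a part of the U7 particle that cuts the transcript, had 451 and 601 (0.47 ± 0.21), and Cstf2, a cleavage factor, 391 and 559 (0.57 ± 0.21). The dimmer probes of Lsm11 and Cstf2 gave lower log2 ratios, 0.13 and 0.04. Npat, the coactivator of histone genes, had 219 and 230.4 (0.13 ± 0.21). Hinfp, the factor known to bind H4 promoters, had 184 and 175 (-0.03 ± 0.21). Pou2f1, which binds the octamer, had 734 and 411, a ratio of 0.581, while its 2 dimmer probes gave log2 ratios of -0.31 and 0.28. The probes of Pou2f1 thus differ in direction.

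Histone chaperones carry newly made histones to DNA. Of 16 genes tested, 13 were above 0, against 53.3% of all probes, with a median log2 ratio of 0.21. Most had a control level of at least 1, where 41.6% of all probes were below 0 and their median was 0.05. Chaf1b, a subunit of the assembly factor that works behind the replication fork, had 5805 and 9073, that is 1.62 times the control level after scaling (Z-score 2.02), and was the only one at a ratio of at least 1.5, against 8.24% of all probes. Nasp, a chaperone of H1 and of H3 with H4, had 4782 and 5827 (0.34 ± 0.20). Asf1b, which binds H3 with H4, had 2742 and 3192 (0.27 ± 0.20). Its relative Asf1a stood well above background in the control alone, at 29.0, and was at least 1.06-fold lower with CHIR99021.

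S phase genes were measured because histone mRNA follows DNA replication. Of 19 genes, 18 were tested, with a median log2 ratio of 0.17, and 16 were above 0, against 53.3% of all probes. Most of the 18 had a control level of at least 1, where 41.6% of all probes were below 0 and their median was 0.05. In its highest-signal probe none was at most 0.66, against 9.68% of all probes, or at least 1.5, against 8.24%. A dimmer probe of Cdc6 had 1.52 and a dimmer probe of Mcm3 1.51. Pcna, the sliding clamp of the replication fork, had 8034 and 10538 (0.44 ± 0.20). Rrm2, a subunit of ribonucleotide reductase, had 4677 and 6162 (0.45 ± 0.20), and Cdc6, which loads the replicative helicase, 402 and 540.2 (0.48 ± 0.21). Rrm1 was lowest, at 4048 and 3795 (-0.04 ± 0.20). Whether the ratios of the bright H4 probes are linked to those of the S phase genes was not tested.

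**Figure D4:**
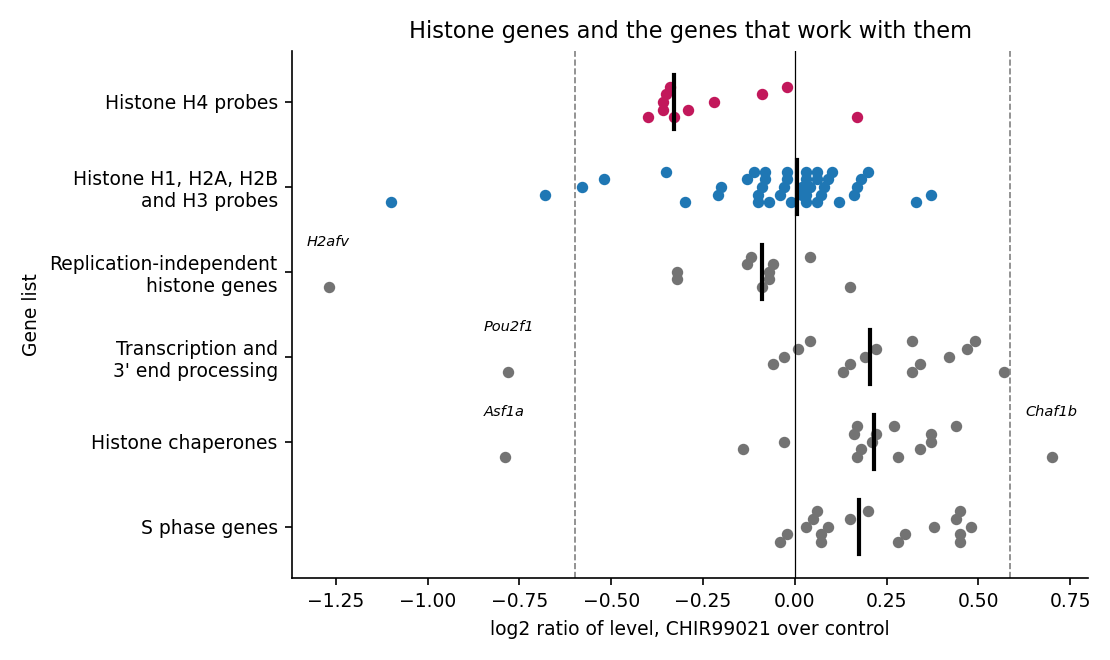
Log2 ratio, CHIR99021 over control, of the H4 probes, of the other histone probes and of the highest-signal probe of each gene in 4 related lists; black bars are medians, dashed lines mark ratios of 0.66 and 1.5, and genes past them in the 4 lists are named, of which Asf1a was measured in the control alone. The H4 median of -0.33 lies below those of the other histone probes (0.00), replication-independent histones (-0.09), processing genes (0.21), chaperones (0.21) and S phase genes (0.17).

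The medians of H4 and of the other types were recomputed under each way of processing. The H4 median ran from -0.41 with the authors' normalized values to -0.24 with spike-in scaling. The median of the other types ran from -0.05 to 0.09. Scaling by another factor moves all probes alike and leaves the gap at 0.33 by construction. Under the alternatives that could move it, H4 lay below the other types by 0.33 to 0.40. All 8 bright H4 probes stayed below 0 under every scaling, under the normexp background and with the authors' values.

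**Figure D5:**
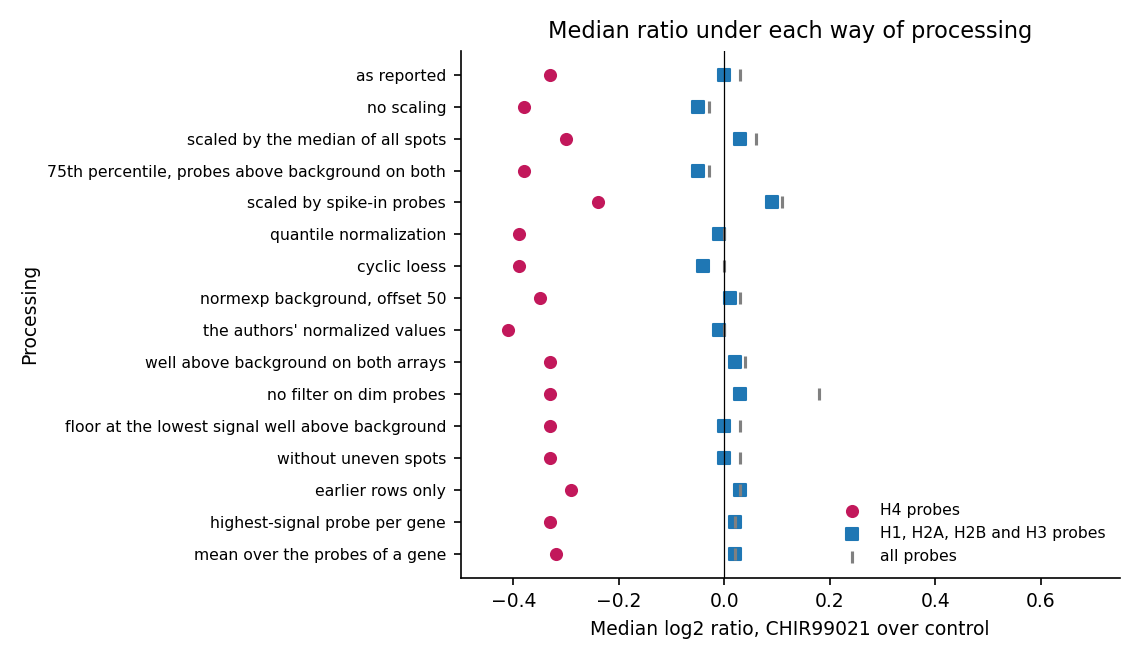
Median log2 ratio, CHIR99021 over control, of the H4 probes, of the H1, H2A, H2B and H3 probes and of all tested probes under each way of processing. The H4 median stays between -0.41 and -0.24, below the other 2 medians on every line.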

How the data were processed

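Total RNA of mDE6 cells was labelled with Cy3 by the authors and hybridised to Agilent mouse arrays of 60-base probes, 1 array of control cells and 1 of CHIR99021-treated cells. The methods name a human array, but the file headers name a mouse design with coordinates in mm9. The deposited intensity of each spot is its background-subtracted signal, with no normalization between arrays; per the file headers it was made with Feature Extraction 10.7.1.1, whereas the labels give 9.5.1.1. The authors' normalized intensity table was used as an alternative.

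Signals were divided by the 75th percentile of their array in Python 3.11.15 (with numpy 2.4.6 and pandas 2.3.3). Spots of controls and outlier spots were left out, spots of a probe were averaged as log2 values, and a probe was kept if it stood well above background in either condition. For a probe that did so in 1 condition only, the bound was taken against its own signal in the other, or the lowest signal well above background there where that was higher. The Z-score used the 500 probes nearest in mean level. The calls were tested on simulated data. Normexp and cyclic loess used limma 3.58.1 in R 4.3.3, and figures matplotlib 3.10.9. Genes named were the 8 lowest and 8 highest ratios, the highest and lowest control levels of each type, genes with several measured probes and genes of the lists; others were added after their values were seen. The members and lists were chosen with earlier results of these data known. Each condition has 1 array, and this number limits the precision. The result of 1 marker gene is not reported here.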

Additional observations from a re-analysis of the deposited data

How the results depend on the processing

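No paired analysis was possible because only 1 array was made per condition. No replicate could be left out for the same reason. Another scaling moves every ratio by the same amount, so medians near 0 changed sign. Without scaling the median log2 ratio was -0.08 for all histone probes, -0.04 for H1, -0.03 for H2A, -0.11 for H2B, -0.07 for H3 and -0.38 for H4. The 75th percentile taken over probes measured on both arrays gave -0.08, -0.04, -0.03, -0.11, -0.07 and -0.38 in the same order. Scaling by the median gave 0.00, 0.04, 0.06, -0.03, 0.01 and -0.30, and spike-in scaling 0.06, 0.10, 0.11, 0.03, 0.07 and -0.24. Cyclic loess gave -0.07 for all histone probes, -0.04 for H2A and -0.39 for H4, quantile normalization -0.39 for H4, and the authors' values -0.41 for H4. For H1, which has 6 probes, the median was -0.10 in the earlier rows of the array, with the highest-signal probe per gene and with the mean over probes of a gene. For H2B it was -0.01 with normexp, 0.08 with no filter on dim probes and 0.06 in the earlier rows. The earlier rows gave 0.06 for H3 and -0.29 for H4. The 2 probes lower by ratio became 3 without scaling or with the 75th percentile over probes measured on both arrays, 1 with spike-in scaling, normexp, the earlier rows or the highest-signal probe per gene, 0 with the mean over probes, and 4 with no filter, where 3 were higher by ratio. The 1 probe lower by ratio and Z-score became 0 with the mean over probes and with a Z-score from the mean and SD of all probes. Of 240 values of the 30 probes chosen by rule under 8 scalings, backgrounds or value tables, 239 moved by no more than their error; the Hist2h2bb probe at low signal went to -0.33 with normexp. No histone spot was among the uneven ones. Among probes measured on both arrays the error of a log2 ratio grows from 0.20 for bright probes to 0.39 for Hist1h4h. It is 0.51 for Hist2h2ab, measured in the control alone. Signal over background thus limits what the dim probes can show. The cause of the shifts other than those by scaling was not tested.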
